A study of Mus musculus with 13 samples.

Results

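The D4 line of mouse embryonic stem (ES) cells was compared with the S1 line on MG-U74A arrays, 2 of D4 against 4 of S1, with treatment as a covariate. These 6 arrays, of 13 in the series, were chosen by sample title. D4 is a feeder-dependent line that was grown without feeder cells before the experiment (control n = 1, PD169316 n = 1), and S1 is a feeder-free line (control n = 2, PD169316 n = 2). All cells had been kept with 500 pM leukaemia inhibitory factor (LIF), were then diluted to 10000 per ml in medium lacking LIF, and their adherent fraction was lysed after 3 days. Control cells received no inhibitor. The treated cells received 10 µM PD169316, which inhibits p38 MAP kinases. The labels give no strain, sex or karyotype for either line, and each is a single line. Nothing in the labels says that the arrays of a group stem from separate cultures, and the spread behind every p-value may therefore be technical.

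ES cells are derived from the inner cell mass of the blastocyst and keep their pluripotency under LIF, which acts through its receptor and STAT3. After LIF is withdrawn the pluripotency network is shut down and genes of the germ layers come on. ES cell lines are known to differ from one another in sex, strain, karyotype and speed of differentiation, and undifferentiated ES cells carry little major histocompatibility complex (MHC) class I protein at their surface.

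The D4 arrays were hybridized on 1 day, the S1 arrays of number 2 were hybridized 4 days later on chips of the same lot, and those of number 1 came 109 days after D4 on other lots. The line and the hybridization day cannot be told apart. Median signals ran from 89.4 to 134 per array. The Actb 3' to 5' signal ratio, a measure of RNA integrity, was 1.53 and 1.74 on the D4 arrays and 1.67 to 3.31 on the S1 arrays, with the highest value on S1 control number 1. Over all tested probe sets the D4 arrays, which differ in treatment, had a Pearson r of 0.854 (across probe sets, which are not independent). D4 and S1 arrays of different treatment gave 0.837 to 0.872, and those of the same treatment 0.856 to 0.869. The median absolute log2 difference was 0.44 to 0.54 between a D4 and an S1 array of the same treatment, and 0.50 and 0.54 between the S1 arrays of one treatment.

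Which genes differ between the lines was asked first. Tagln, Pls3 and Cnn1, which encode actin-binding proteins, had the smallest p among genes with higher signals in D4, together with Uri1 and Ddx3x. Inpp5d, Chchd10, Trap1a, Sprr2e and Mms19 had the smallest p among those with lower signals. The test covered probe sets that passed a filter of a signal of at least 100 on 2 or more arrays, with signals under 32 set to that floor. No difference passed it. Limma called 0 of 6219 probe sets (0%), with a smallest adjusted p of 0.399, while 392 had an unadjusted p under 0.05 (190 higher and 202 lower in D4), where 311 would be met by chance. The 95% confidence interval of a log2 difference, without adjustment for the number of probe sets, reached a median of 0.95 either way. The adjusted test missed larger differences too. In data simulated for this comparison it called 27.9% of changes of 2 log2 units. With the replicate number of S1 as a block, which marks the hybridization day, 0 passed again, and the number at an unadjusted p under 0.05 was 533.

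Cnn1, the gene of calponin 1 of smooth muscle, had signals of 525.4 and 582.0 in D4 (control, then PD169316). In S1 its signals were 91.2 and 168.7 in control and 232.4 and 122.3 with PD169316. Both D4 arrays lay above all S1 arrays. Its log2 difference was 1.94 (95% confidence interval 0.96 to 2.91, adjusted p = 0.400). Pls3, an actin-bundling plastin, was at 671.9 and 582.2 in D4 against 179.0 to 266.8 in S1, a log2 difference of 1.60 (0.81 to 2.39). Tagln, the gene of transgelin, also differed by treatment within S1. It was at 1288.1 in the D4 control against 174.5 and 289.5 in the S1 controls, and at 3476.3 against 2385.5 and 1342.5 with PD169316. The D4 array was the highest within each treatment, but the D4 control lay below both S1 PD169316 arrays, and the treatment-adjusted difference was 1.74 (0.90 to 2.58).

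Uri1, which encodes a prefoldin-like protein, had D4 signals of 576.2 and 617.8 and S1 signals of 206.0 to 230.3 (log2 difference 1.49), and a second, dimmer probe set gave 0.44. Ddx3x, an X-linked RNA helicase gene, was at 1124.8 and 1028.8 in D4 against 303.1 to 527.5 in S1 (1.31). Its other tested probe set gave 0.10, so the probe sets of this gene disagree. Fgf8, a growth factor of the primitive streak, had the largest difference of all tested genes. It was at 645.0 in the D4 control and 132.1 in the D4 PD169316 array, while the S1 arrays read 7.1, 38.8, 11.7 and 18.0, at or near the floor of 32. The log2 difference of 3.12 (1.45 to 4.79, adjusted p = 0.439) was set against that floor, and Fgf8 too passed the filter through the D4 arrays alone.

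Inpp5d, the gene of the inositol phosphatase SHIP1, had signals of 139.8 and 55.1 in D4. In S1 it read 375.1 and 412.6 in control and 556.4 and 528.9 with PD169316. The groups did not overlap, and the log2 difference was -2.40 (-3.37 to -1.43, adjusted p = 0.399). Chchd10, which encodes a mitochondrial protein, was abundant in both lines, at 3571.9 and 7707.5 in D4 and 10512 to 15024.8 in S1 (-1.21). Trap1a, an X-linked tumour antigen gene, was at 305.1 and 730.9 against 744.5 to 2814.2 (-1.57), and Sprr2e, of the small proline-rich family, at 276.2 and 329.8 against 696.3 to 1337.6 (-1.66). Mms19, which acts in iron-sulphur protein assembly, was at 79.6 and 150.9 against 337.6 to 532.4 (-1.99). In each of these 5 genes both D4 arrays lay below all S1 arrays.

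**Figure D1:**
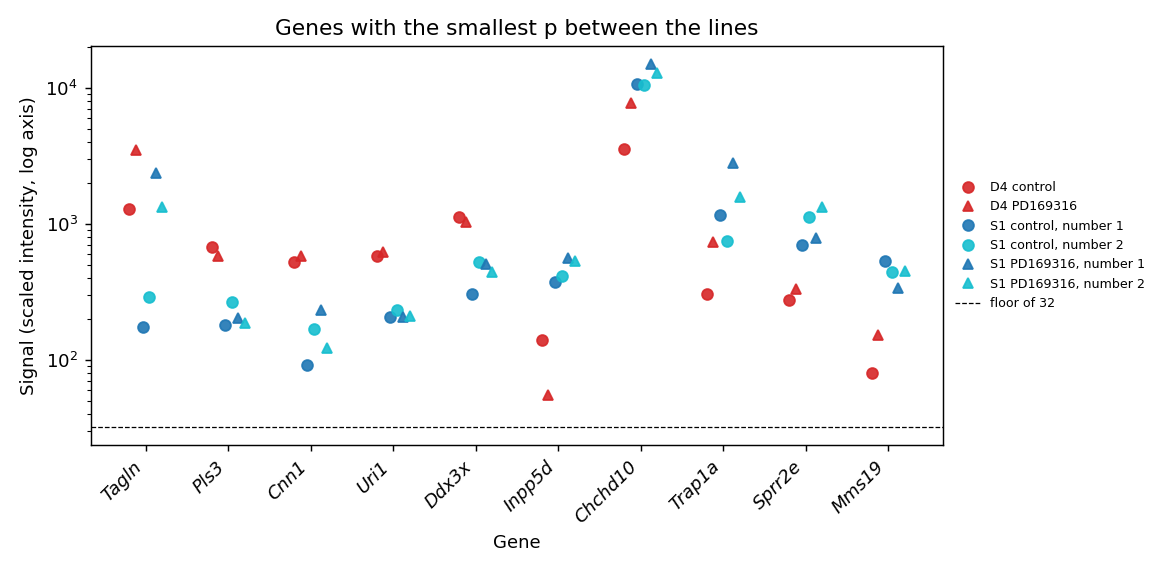
Signals (scaled intensity, log axis) of the 5 genes with the smallest p higher in D4 and the 5 lower in D4, 1 point per array, red for D4 and blue or cyan for S1 of number 1 or 2, circles for control and triangles for PD169316. Only Tagln overlaps between the lines, where the D4 control (1288.1) lies below the S1 PD169316 arrays.

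The genes of the 2 lines were next compared by chromosome, which used 1 probe set for each of 4977 genes and RefSeq's chromosome assignments. Chromosome 1 stood apart. Its 261 tested genes had a median log2 difference of -0.35, which is -0.40 relative to the median of all genes, or a D4 to S1 ratio of 0.759. With no signal filter, which adds dim genes held at the floor, the relative median was -0.22, and among the 240 genes that reached 100 in both lines it was -0.39. The relative medians of the other autosomes and X lay between -0.05 and 0.09. On chromosome 1, 195 of 261 genes (74.7%) had a negative difference, against 45.8% of all tested genes. Both D4 arrays lay below all 4 S1 arrays for 63 of the 261 (24.1%), where the background over all genes was 5.63% (280 of 4977) and no other chromosome exceeded 7.05%. Of these 63 genes 7 passed the filter through the S1 arrays alone. Among genes that reached 100 in both lines the share was 23.3% on chromosome 1 (56 of 240) and 4.56% over all. Both D4 arrays lay above all S1 arrays for 12 genes (4.6%), where the background was 8.84%. An unadjusted p under 0.05 with lower signal in D4 was met by 48 of the chromosome 1 genes (18.4%, background 3.3%). Chromosome 1 held 5.24% of the tested genes and 29.3% of the 164 genes of that kind, and 12 of the 30 lower genes with the smallest p. These are descriptions without a test of their own.

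The shift was present in every pair of a D4 and an S1 array of the same treatment, and in none of the pairs compared within a line. The relative chromosome 1 median was -0.43 and -0.39 when the D4 control was set against S1 controls number 1 and 2. It was -0.43 and -0.38 when the D4 PD169316 array was set against the S1 PD169316 arrays. The D4 arrays differed from each other by 0.00 on this measure, the S1 controls, which differed in hybridization day and chip lot, by 0.02 and the S1 PD169316 arrays by 0.06. A further S1 array, treated with another compound (SB203580), differed from S1 control number 1 by 0.05. Over the other chromosomes the relative medians ran from -0.11 to 0.16 in pairs across the lines and from -0.12 to 0.16 in pairs within a line. A chromosome 1 score for each array, the median deviation of its genes from their mean over the arrays relative to all genes, was -0.30 and -0.25 in D4 (mean -0.28 ± 0.03, SD, n = 2) and 0.11, 0.16, 0.18 and 0.11 in S1 (mean 0.14 ± 0.04, SD, n = 4). The D4 and S1 scores did not overlap.

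**Figure D2:**
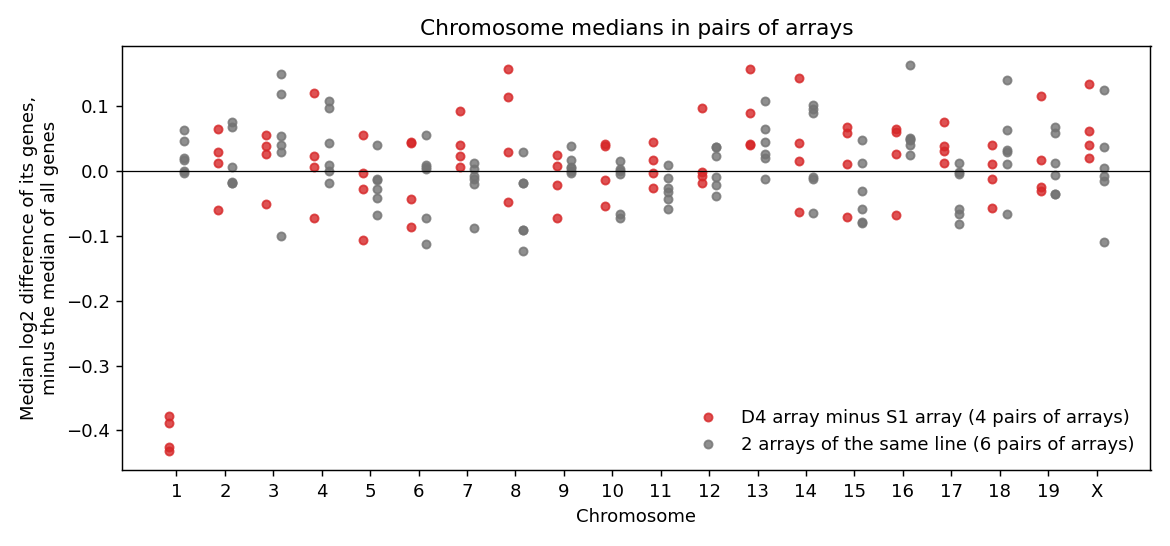
Median log2 difference of the genes of each chromosome, relative to the median of all genes, in 4 pairs of a D4 and an S1 array of the same treatment (red) and 6 pairs of arrays of the same line (grey). The grey pairs include an S1 array treated with SB203580 against S1 control number 1. The red points of chromosome 1 lie between -0.43 and -0.38, and all other points lie between -0.12 and 0.16.

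The lower signals ran along the whole of chromosome 1. In 8 consecutive blocks of 32 or 33 genes, from Sox17 and its neighbours at one end to Parp1 and its neighbours at the other, the relative median lay between -0.56 and -0.19, and 20 to 27 genes of each block were negative. Cut into 4 stretches of equal gene number it lay between -0.45 and -0.27, while 76 such stretches of the other chromosomes lay between -0.17 and 0.26. The shift was larger in brighter genes. For genes with a mean signal under 300 the chromosome 1 median minus that of the other chromosomes was -0.28, for 300 to 1000 it was -0.41, and above 1000 it was -0.52. Of the 38 brightest genes 94.7% were negative, against 53.9% of genes of that brightness elsewhere. The floor compresses differences of dim genes.

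The lower genes of chromosome 1 had varied functions. Xrcc5, which encodes the Ku80 subunit of DNA repair, was at 466.9 and 476.2 in D4. In S1 it read 968.1 and 993.2 in control and 827.5 and 833.0 with PD169316, a log2 difference of -0.94 (95% confidence interval -1.53 to -0.35). Psmd1, a proteasome subunit gene, was at 1304 and 1446.7 in D4 and 1690 to 3218 in S1 (-0.88). In both genes the D4 arrays lay below every S1 array. Uck2, a pyrimidine nucleoside kinase gene, was at 1934 and 1621.3 against 2603.9 to 4249.8 (-0.94). Timm17a, of mitochondrial protein import, was at 935.4 and 1309.1 against 1680.3 to 2319.2 (-0.89), and Pfdn2, a prefoldin subunit gene, at 839.7 and 1037.7 against 1516.5 to 2190.9 (-0.91). Parp1, of DNA damage repair, was at 659 and 759.8 against 1111.2 to 1238.1 (-0.72), and Fn1, the gene of fibronectin, at 732.6 and 899.7 against 930.2 to 1626.8 (-0.72). All 7 had non-overlapping groups. Their adjusted p-values over all probe sets were 0.615 to 0.775. Other genes of the chromosome ran the other way, and in 12 of the 261 both D4 arrays lay above all S1 arrays. Among these, Klf7, a Kruppel-like factor gene, was at 332.1 and 547.9 in D4 against 116.8 to 283.9 in S1 (1.26). Psen2, the gene of presenilin 2, was at 240.8 and 222.8 against 51.8 to 148.9 (1.34). DNA content was not measured, and from these arrays it cannot be told whether D4 or S1 departs from the usual level of chromosome 1 transcripts.

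**Figure D3:**
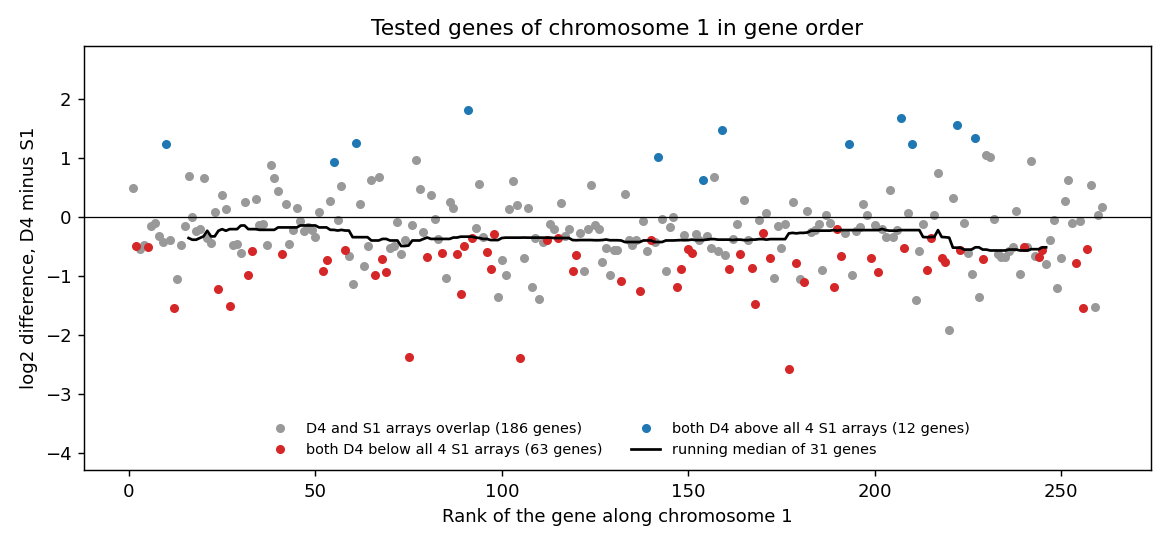
Log2 difference (D4 minus S1) of the 261 tested genes of chromosome 1 against their rank along it, red where both D4 arrays lay below all S1 arrays, blue where above, grey where they overlapped. The black running median of 31 genes stays below 0 along the chromosome.

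All 12 tested genes of the MHC and antigen presentation list had a positive difference, where 2699 of 4977 tested genes (54.2%) did. The list median was 0.85 and that of all tested genes 0.04. It was 1.35 against the S1 arrays of number 1 alone and 0.60 against those of number 2. None passed the adjusted test, 4 had an unadjusted p under 0.05 (background for higher genes 2.77%), and in 5 both D4 arrays lay above all S1 arrays (background 8.84%). Psmb8, a subunit of the immunoproteasome, was at 516.3 and 358.0 in D4 and at 116.6, 246.8, 152.5 and 162.9 in S1 (controls 1 and 2, then PD169316 1 and 2). Its log2 difference was 1.39 (0.45 to 2.34, adjusted p = 0.775). Tapbp, the gene of tapasin, which loads peptides onto class I molecules, was at 576.4 and 389.3 against 150.1 to 243.0 (1.25). Its other tested probe set, at 331.6 and 230.7 against 97.2 to 278.6, overlapped between the lines (0.74). H2-K1, a class I heavy chain gene, was at 1391.6 and 1807.7 against 500.7 to 1131.7 (0.99), but its other tested probe sets gave 0.15 and -0.64. Class I genes are near-identical copies, so their probe sets may read one another. Cd74, the class II invariant chain gene, was dim, at 244.0 and 235.0 against 20.9 to 130.2 (2.02). B2m, the class I light chain gene, overlapped between the lines (202.1 and 657.0 against 89.9 to 466.8), as did Tap1 and the brightest H2-D1 probe set (897.7 and 844.4 against 519.8 to 1236.7, 0.29). Both D4 arrays lay above all S1 arrays in the other tested probe sets of H2-D1, at 844.9 and 790.3 against 362.2 to 754.2 (0.76) and at 142.6 and 151.5 against 11.8 to 101.8 (1.10).

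The interferon and inflammation list gave a median of 0.67 over 10 tested members, 7 positive and 3 negative, with 0 called. In 4 genes (Gbp2, Irf7, Gbp3 and Cxcl1) both D4 arrays lay above all S1 arrays (background 8.84%), and 3 of these had an unadjusted p under 0.05 (background 2.77%). All 4 stayed under a signal of 100 on every S1 array and passed the filter through the D4 arrays alone, so the filter fixed that D4 was higher, and the counts and the median are no support for a difference. Of the 5 members that reached 100 in both lines 3 were positive, with a median of 0.40, and 0 had non-overlapping groups. The median of all 10 was 0.29 when arrays were scaled to the same median signal, which moved the median of all probe sets from 0.06 to -0.14. Gbp2, a guanylate-binding GTPase gene, was at 132.7 and 227.1 in D4 and at 13.9, 43.7, 40.0 and 94.9 in S1 (1.85). Irf7, a transcription factor of the interferon response, was at 141.5 and 108.4, while the S1 arrays read at most 27.1, all under the floor (1.95). Gbp3 was at 166.4 and 117.3 against 22.3 to 76.1 (1.74), and Cxcl1 at 112.5 and 129.4 against 54.6 to 92.0 (0.85). The classical interferon-induced genes Isg15, Ifit3, Usp18 and Mx1 stayed under the signal filter, and Ifit1 and Ifit2 exceeded 100 only on the D4 control array.

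**Figure D4:**
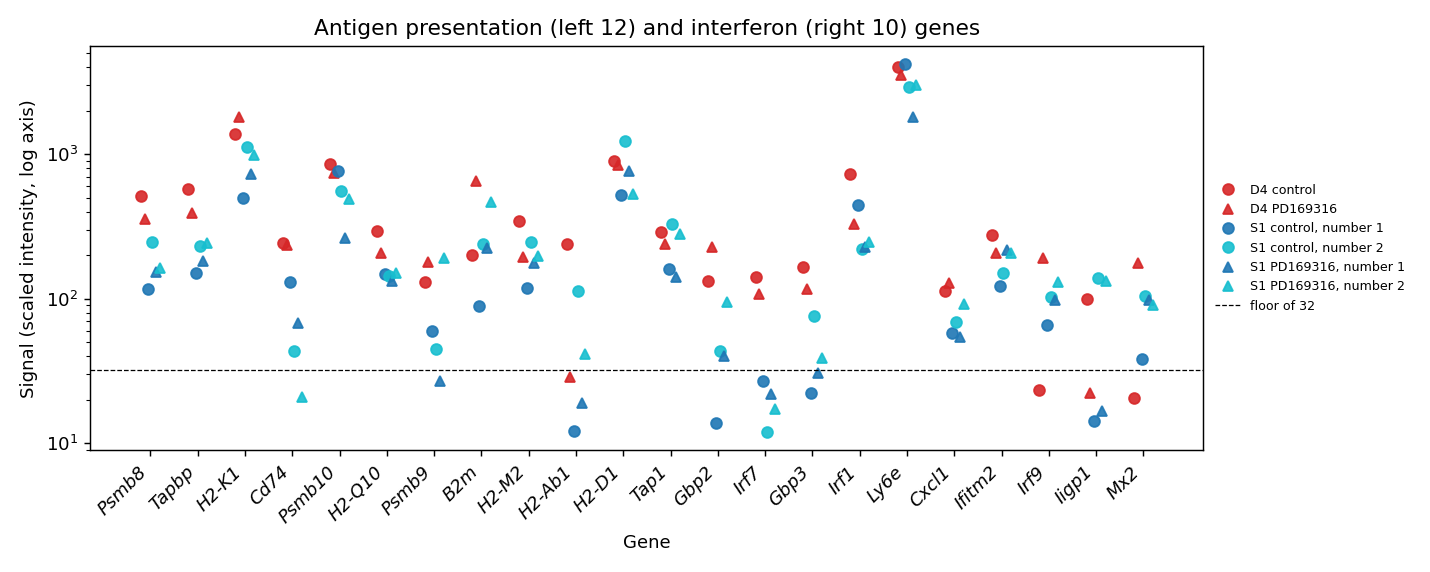
Signals (scaled intensity, log axis) of the 12 tested antigen presentation genes and the 10 tested genes of the interferon and inflammation list. Each point is 1 array, red for D4 and blue or cyan for S1, circles for control and triangles for PD169316. Psmb8, Tapbp, H2-K1, Cd74, H2-Q10, Gbp2, Irf7, Gbp3 and Cxcl1 have both red points above all S1 points.

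The promoters of these genes were searched for the interferon-stimulated response element, taken as 2 copies of GAAA with 2 bases of any kind between them, on both strands of the 250 bases before the gene start (RefSeq, GRCm38.p6). Of the 22 tested genes of both lists, 17 had a promoter entry and 4 of them held a match (B2m, Gbp2, Gbp3 and Ifitm2). Over 32851 mouse promoters 2.98% held one. The lists were chosen by function, interferon response included, so this share does not bear on D4 against S1. A part of the element in the line difference was not tested. Among the genes with a match, Gbp2 and Gbp3 had the largest log2 differences. Both passed the filter through the D4 arrays alone, so these differences are no support for a line difference. The Gbp2 (chr3:142620413-142620662, plus strand) and Gbp3 (chr3:142559794-142560043, plus strand) windows are shown as examples. Capitals mark the match, which is read on the opposite strand in both, and the Gbp3 window has 2 overlapping matches.
Gbp2: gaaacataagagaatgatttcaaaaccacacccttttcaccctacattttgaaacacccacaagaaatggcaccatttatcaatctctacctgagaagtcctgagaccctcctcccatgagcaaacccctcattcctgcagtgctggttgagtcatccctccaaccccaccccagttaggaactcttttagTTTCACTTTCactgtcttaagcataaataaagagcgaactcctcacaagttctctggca
Gbp3: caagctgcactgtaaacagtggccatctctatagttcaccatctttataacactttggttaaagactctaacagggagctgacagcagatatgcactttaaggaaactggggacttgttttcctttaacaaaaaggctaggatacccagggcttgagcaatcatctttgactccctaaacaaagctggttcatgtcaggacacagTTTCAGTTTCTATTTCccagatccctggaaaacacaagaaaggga

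The list of actin cytoskeleton genes and targets of serum response factor (SRF) holds Tagln and Cnn1. Of its 31 tested genes 23 had a positive and 8 a negative difference, with a median of 0.45, 0 called, and 9 at an unadjusted p under 0.05, all with higher signals in D4 (background 2.77%). In 6 of the 31 both D4 arrays lay above all S1 arrays (Cnn1, Tpm4, Cnn2, Ccn2, Actc1 and Myl9), where the background was 8.84%. Acta1, skeletal alpha-actin, was at 210.8 in the D4 control against 72.4 and 67.2 in the S1 controls, and at 893.0 against 365.1 and 384.4 with PD169316 (1.42, 0.57 to 2.28). Tpm4, a tropomyosin gene, was at 2510.8 and 3035.5 against 1148.3 to 2475.6 (0.67). In the other 25 members the lines overlapped. The list median was 0.38 on control arrays and 0.46 on PD169316 arrays, and 0.25 with arrays scaled to the same median signal.

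A CArG box, the binding element of SRF, was found in the 250 bases before the start of 6 of the 24 list genes with a promoter entry (Acta1, Actc1, Actg1, Cnn2, Myl9 and Vcl), against 1.47% of all 32851 promoters. The list was chosen to hold SRF targets, so this share does not bear on D4 against S1. A part of the box in the line difference was not tested. Of the genes with both D4 arrays above all S1 arrays, Cnn1 and Tpm4 had no match and Ccn2 had no promoter entry. Tagln had no entry either. In Acta1, Actg1 and Vcl, which have a match, the lines overlapped. The windows of Cnn2 (chr10:79988350-79988599, plus strand), Actc1 (chr2:114052876-114053125, minus strand) and Myl9 (chr2:156775214-156775463, plus strand) are shown because these 3 genes had a match and both D4 arrays above all S1 arrays. Capitals mark the CArG box, which begins 56, 47 and 161 bases before the start.
Cnn2: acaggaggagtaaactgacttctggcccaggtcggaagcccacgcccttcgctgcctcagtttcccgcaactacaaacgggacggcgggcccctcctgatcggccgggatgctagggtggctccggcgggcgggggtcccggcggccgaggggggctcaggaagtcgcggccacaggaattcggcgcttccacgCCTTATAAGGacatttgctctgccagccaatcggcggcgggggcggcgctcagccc
Actc1: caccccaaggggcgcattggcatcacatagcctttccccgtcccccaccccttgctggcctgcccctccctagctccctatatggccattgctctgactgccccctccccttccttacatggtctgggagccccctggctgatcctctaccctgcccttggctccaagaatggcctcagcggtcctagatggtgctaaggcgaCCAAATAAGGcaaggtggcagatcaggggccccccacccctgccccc
Myl9: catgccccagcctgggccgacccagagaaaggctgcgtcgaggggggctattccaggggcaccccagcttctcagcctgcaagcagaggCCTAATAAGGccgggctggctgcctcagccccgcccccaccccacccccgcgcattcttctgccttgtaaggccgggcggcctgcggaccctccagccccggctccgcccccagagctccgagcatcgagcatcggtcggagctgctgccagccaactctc

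Cnn2 itself, another calponin gene, was at 372.5 and 677.5 in D4 and 167.0 to 345.6 in S1 (0.98). Actc1, cardiac alpha-actin, was at 612.6 and 715.2 against 169.4 to 580.1 (0.97), and Myl9, a myosin light chain gene, at 191.0 and 311.9 against 131.5 to 179.7 (0.67). The D4 arrays were above the S1 arrays in each, and none passed the adjusted test.

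Of 22 tested pluripotency genes 18 had a negative difference (45.8% of all tested genes did), Pou5f1 not among them, with a list median of -0.46 (-0.43 without Gbx2 and Tfcp2l1, which lie on chromosome 1). The median was -0.66 against the S1 arrays of number 1 alone, -0.23 against those of number 2 and -0.28 without S1 PD169316 number 1. None was called, 5 had an unadjusted p under 0.05, all with lower signals in D4 (background 3.3%), and in 4 (Sox2, Mybl2, Klf2 and Nr0b1) both D4 arrays lay below all S1 arrays (background 5.63%). Of these 4 genes Klf2 passed the filter through the S1 arrays alone. In all, 3 of the 22 tested members passed through the S1 arrays alone, which favours a negative difference. Of the 19 that reached 100 in both lines 4 were positive, and the median of the 19 was -0.43. Sox2, a core pluripotency factor, was at 1434.9 and 1862.7 in D4 and at 2718.5, 2466.1, 2813.5 and 2229.9 in S1. Its log2 difference was -0.64 (-1.16 to -0.11, adjusted p = 0.775). Klf5, another factor of the network, was at 640.7 in the D4 control against 768.5 and 1816.9, and at 1103.1 against 2314.4 and 1823.0 with PD169316 (-0.89). Klf2 was near the floor in D4 (26.6 and 41.7) and at 61.0 to 221.8 in S1 (-1.67). Pou5f1, which encodes OCT4, was at 6011.2 and 4823.9 against 3450.4 to 6606.4 (0.06, -0.46 to 0.57), and its sign turned to -0.15 when the arrays were scaled to the same median. Zfp42, also known as Rex1, was at -0.43 (-1.24 to 0.37) and Fgf4 at -0.72 (-1.51 to 0.07). Nanog and Dppa5a were listed at 0 on every array, as were 2611 of the 12588 probe sets. Such a 0 cannot be read as absence of the transcript.

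**Figure D5:**
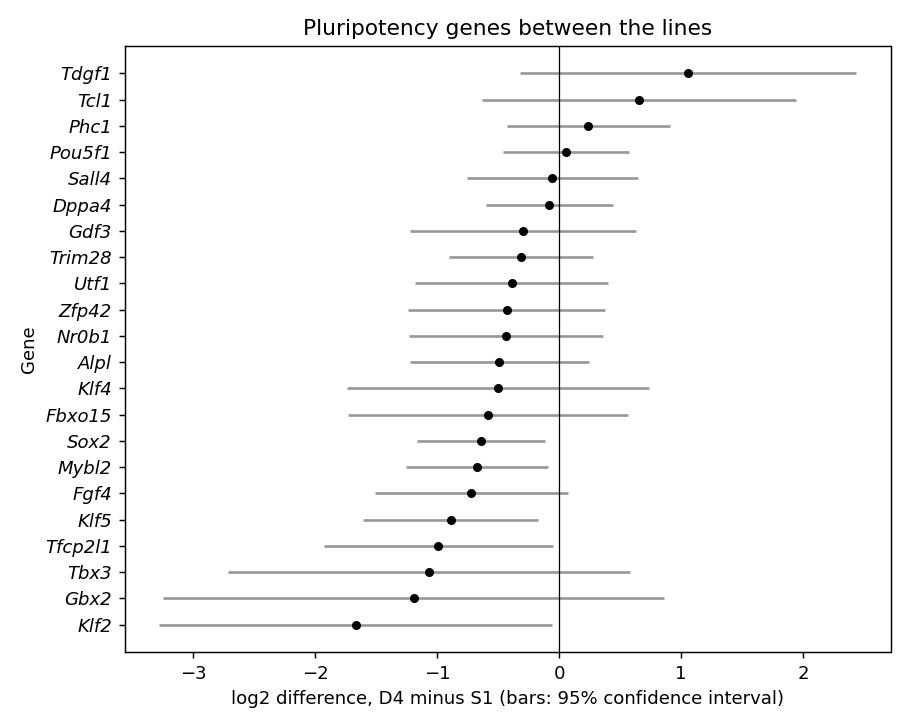
Log2 difference (D4 minus S1) of the 22 tested pluripotency genes with 95% confidence intervals from limma. Of the points 18 lie below 0, and Pou5f1 lies at 0.06. Of the 22 genes, 3 passed the filter through the S1 arrays alone.

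In LIF signalling, 7 of 20 tested genes were positive and 13 negative, with a median of -0.20 and 0 called. Of the 20 genes, 3 passed the filter through the S1 arrays alone, which favours a negative difference. Among the 17 that reached the minimum signal of the filter in both lines 7 were positive, and their median was -0.02. The list median of -0.20 is therefore no support for a lower level in D4. The receptor gene Lifr (63.8 and 147.5 in D4, 77.5 to 201.3 in S1) and its partner Il6st (135.6 and 111.6 against 105.8 to 213.2) overlapped between the lines. Stat3 was at 315.9 and 300.5 against 323.6 to 585.2, below all S1 arrays, with a log2 difference of -0.42 (-1.19 to 0.35). A dimmer Stat3 probe set, at 219.5 and 42.4 against 115.9 to 242.8, overlapped between the lines (-0.98). Pim2, a kinase gene of this list, was at 2894.3 and 1294.9 in D4 (1.46). In the S1 controls it was at 2669.8 and 1540.5 and with PD169316 at 127.2 and 467.3, so the D4 control lay just above the S1 controls and the D4 PD169316 array well above the S1 PD169316 arrays.

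In the list of cholesterol and fatty acid synthesis 10 of 13 tested genes had a positive difference (54.2% of all tested genes did), with a median of 0.53, 0 called and 2 at an unadjusted p under 0.05, both with higher signals in D4 (background 2.77%). Idi1, isopentenyl diphosphate isomerase, was at 1510.5 and 1191.6 against 334.4 to 1172.8 (1.01), and Fdps, farnesyl diphosphate synthase, at 3456.7 and 4112.7 against 1490.8 to 4053.0 (0.82). S1 PD169316 number 2 was the highest S1 array in both. Among stress genes, Ddit3, a transcription factor of the endoplasmic reticulum stress response, was at 36.0 and 333.7 in D4 against 191.0 to 825.3 in S1 (-2.16), and Mt1, a metallothionein gene, at 1773.3 and 5827.4 against 1593.4 to 13587.2 (-0.79). For Mt1 the D4 control lay between the S1 controls, while with PD169316 D4 read 5827.4 against 12963.9 and 13587.2. The remaining lists had medians between -0.30 (primitive streak and mesoderm, whose highest member was Fgf8) and 0.45 (fibroblast), with 0 called in each. Cldn7, a tight junction claudin gene of the adhesion list, was at 507.7 and 544.9 against 53.5 to 305.5 (1.76).

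D4 depends on feeder cells in routine culture but was grown without them before the experiment, and fibroblast genes were examined as markers of that other cell type. Of 25 on the chip, 10 passed the filter and 7 of those were positive (median 0.45). Without Fn1, which lies on chromosome 1, the median of the other 9 was 0.63, with 2 negative. The summed signal over all 25, Fn1 included, was 3312.4 and 3727.1 in D4 and 2538.4 to 4465.4 in S1. Vim, Col1a2 and Cd44 stayed under the filter, and Col1a1 was at 160.1 and 193.4 in D4 against 34.1 to 203.6 in S1. Lox and Pdgfrb were listed at 0, which cannot be read as absence of their transcripts. The summed fibroblast signals thus overlapped between the lines, while 7 of the 10 tested members were higher in D4. The part of fibroblast genes in the differences above was not tested. In bulk RNA fewer cells of a type and less RNA per cell cannot be told apart.

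The Y-linked genes on the chip disagreed in signal. Eif2s3y read 306.7 and 264.5 in D4 and 96.8 to 220.0 in S1 (0.74, -0.24 to 1.71). Kdm5d read 8.6 and 50.9 in D4 and 7 to 31.9 in S1, and Uty 14.9 and 65.6 against 7.8 to 53.3, near or under the floor in both lines, and neither was tested. Xist, the X inactivation transcript, read 77.0 and 12.6 in D4 and 3.0 to 24.5 in S1 and was not tested. X-linked genes as a whole had a relative median of -0.01.

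The effect of PD169316 was compared between the lines through the interaction, which rests on 1 D4 pair. By chance 311 of 6219 probe sets would have an unadjusted p under 0.05 in each fit of this paragraph, more than any of them gave. Limma called 0 of 6219 probe sets (0%), 149 had an unadjusted p under 0.05, and the smallest adjusted p was 1.0. The line difference also gave 0 calls on the control arrays alone (238 at an unadjusted p under 0.05) and 0 on the PD169316 arrays alone (185). Smoc1, a secreted matricellular protein gene, had the smallest p of the interaction. It read 40.5 in the D4 control and 167.9 with PD169316, against 227.3 and 276.0 in the S1 controls and 41.2 and 55.0 with PD169316 (difference of the effects 4.45 ± 1.14, SE). Tbl1x (-5.14), Syngr2 (-3.28) and Btd (-3.58) followed, together with an Actb probe set (1.96).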

How the data were processed

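The fits used 6 of the 7 MG-U74A arrays. The SB203580 array entered only an alternative fit and a pair within S1 in the chromosome comparison. MG-U74Av2 was not used here. The deposited file holds an intensity for each probe set. The authors made these intensities with Microarray Suite 5.0 by global scaling of each array to a trimmed mean of 300, per the labels' protocols. Hybridization days and lots come from the deposited experiment records. Of 12588 probe sets, 2611 were at 0 on all arrays, which cannot be read as absence of a transcript, and 66 control probe sets were left out. A floor of 32 was applied before taking log2 and shrinks differences of dim genes. Probe sets reaching 100 on 2 or more of the 6 arrays (6219) were fitted with limma 3.58.1 in R 4.3.3 (line and treatment terms; eBayes with an intensity trend, two-sided, Benjamini-Hochberg adjustment, threshold 0.05). Each D4 group has 1 array and was assumed to vary like the others. The number of arrays limits the precision. In data simulated for this comparison (6219 probe sets), limma called 4 of 6019 unchanged probe sets and 2.74%, 27.9% and 66.7% of those changed by 1, 2 and 3 log2 units.

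Names came from the platform annotation (10276 probe sets with 1 symbol, 363 with several, 1949 with none; 0 updated) and chromosomes from RefSeq (GRCm38.p6) through gene IDs. A gene was represented by the probe set with the highest mean signal. Named genes are the 5 smallest p each way, as none passed; the smallest p of 31 lists; the 5 smallest p of the interaction; and a set of pluripotency, LIF, lineage, sex and fibroblast genes. Chromosome 1 genes and further examples were chosen after their values were seen. Members and lists were chosen with earlier results of these data known. S1 numbers mark shared hybridization days (correlation of deviations 0.18), so they pair S1 arrays; D4 arrays carry no number. Alternatives were other scalings, floors, filters, blocks and arrays left out.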

Additional observations from a re-analysis of the deposited data

How the results depend on the processing

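The number of probe sets that passed between the lines was 0 under quantile normalization, scaling to the same median, floors of 16 and 64, no filter, a minimum signal of 200, the replicate block, the hybridization day as a random block or averaged, the chip lot as a block, no intensity trend, the SB203580 array added, and S1 arrays of number 1 or 2 only. Leaving out single S1 arrays gave 0 in the main test. The tests on control arrays, on PD169316 arrays and of the interaction rest on single D4 arrays, so in them only S1 arrays were left out. With no signal filter, the control arrays gave 311, the PD169316 arrays 252 and the interaction 403 calls; of these 241, 194 and 314 had all 4 S1 arrays at or under the floor, where the spread is 0 by construction. Chosen after seeing the data, keeping the control probe sets in the fit gave 11 calls with the replicate block (9 of them control probe sets, the others Trap1a and Sprr2e) and 15 with S1 number 1 only (14 control probe sets); with the replicate block it gave 13 on control and 10 on PD169316 arrays, and the cause was not tested. The chromosome 1 median of -0.40 was -0.43 to -0.38 without single arrays, -0.39 with S1 arrays of either number only, -0.22 with no signal filter, and -0.52 for genes above a signal of 1000, all chosen after seeing the data. Medians ranged from 0.60 to 1.35 for antigen presentation (1.35 with S1 number 1 only) and 0.29 to 0.93 for the interferon and inflammation list. They ranged from 0.25 to 0.54 for actin genes and -0.66 to -0.23 for pluripotency genes. Signs of single genes reversed as follows. Without single arrays, the difference ran from -0.10 to 0.21 for Pou5f1, -0.87 to 0.0051 for Zfp42, -1.54 to 0.10 for Fgf4 and -0.47 to 0.18 for Il6st. Pou5f1 was at -0.15 with the same median and -0.10 with S1 number 1 only; with number 2 only or the lot as a block, Il6st was at 0.18 and Tap1 at -0.21. Dim genes near the floor are a limit of these 6 arrays, and so is the size of a difference. In the simulated data 2.74% of changes of 1 log2 unit and 27.9% of changes of 2 were called.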
